A study of Mus musculus with 2 samples.

Results

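The integrated stress response is the route by which mammalian cells turn many kinds of stress into a common change of translation and transcription. Kinases that sense amino acid shortage, misfolded protein in the endoplasmic reticulum, viral RNA or heme shortage phosphorylate the initiation factor eIF2alpha, general translation falls, and mRNAs with suitable upstream reading frames are translated more. ATF4 is the central transcription factor made in this way. It pairs with C/EBP family proteins on its target genes, among them the gene for CHOP, and some of the targets feed back on the response. A level of mRNA does not show how much of these proteins was made.

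Described here are 10 genes of this route, taken by name from the 21983 gene entries of a deposited count table. The genes are Atf4, Ddit3 (which encodes CHOP), Atf3, Atf5, Cebpb and Cebpg, which encode transcription factors, and Trib3, Chac1, Sesn2 and Ppp1r15a, which encode targets and feedback regulators. All 10 were found, and all had at least 10 counts. RNA came from 14837 cells, a line of mouse pancreatic cancer (ductal adenocarcinoma, PDAC) of C57BL/6 strain, kept for 48 h in conditioned medium, that is, medium in which other cells have grown. The labels list 2 libraries, 1 from cells in medium of cancer-associated fibroblasts (CAFs) and 1 from cells in medium of 14837 cells. The series' title names nucleosides secreted by the tumour's surroundings as the subject. The labels do not say how the CAFs were obtained.

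A value column matched the CAF-medium library by name, and the name of the other value column matched neither library. The values below are therefore levels in 1 library, with no replicate and no test between groups, and they do not show what CAF medium altered. The library held 21269197 counts. Levels are given in counts per 1000000 counts (CPM), and levels of different genes are compared in CPM per kilobase of the gene's longest coding transcript, since longer transcripts collect more counts. Intervals are exact 95% intervals that cover counting error only. Of the 9 ductal epithelial markers 7 had at least 10 counts, with Krt18 at 1266 CPM per kilobase, while Epcam had 2 counts and Cldn4 was listed at 0. Of the 9 fibroblast markers 4 were listed at 0, and the list summed to 787 counts, of which Pdgfra held 727 and Col1a1 29. The 6 markers of blood and vessel cells summed to 128 counts, of which Cd68 held 121. In a bulk library, fewer cells with a transcript and less of it per cell cannot be told apart.

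The genes of the ATF4 and CHOP route stood high in cells kept in CAF medium. At or above 100 CPM were 9 of the 10, against 23.7% of the 11567 genes with at least 10 counts. Atf3 was the exception at 88.9 CPM. All 10 lay above the median gene of 37.9 CPM, the level that splits those 11567 genes into equal parts. Their median was 282 CPM and, per kilobase, 147 CPM, where the median gene had 11.9 CPM per kilobase. Together the 10 genes held 72518 counts, or 0.341% of the library, and Atf4 alone held 33.7% of that sum.

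Per kilobase, the 10 genes spanned a 17.2-fold range and ran in the order Atf4, Ddit3, Cebpb, Chac1, Atf5, Trib3, Ppp1r15a, Sesn2, Atf3 and Cebpg. In each of the 9 pairs of neighbours in this order the interval of the ratio excluded 1. This held for 8 pairs with counts divided by 3, where Trib3 and Ppp1r15a were no longer told apart, and for 6 of the 9 pairs in the order by coding length. The widest step was from Atf4 to Ddit3, at 2.31-fold (2.25 to 2.38), and the narrowest from Trib3 to Ppp1r15a, at 1.05-fold (1.02 to 1.09). These intervals hold no error between cultures, so the order has no replicate check. The order also rests on the length used. With the length of all exons 6 of the 10 genes kept their place, and with the coding length 2 did. Cebpg, whose longest transcript of 4709 bases has a coding part of only 450 bases, moved from the 10th place to the 4th by coding length.

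**Figure D1:**
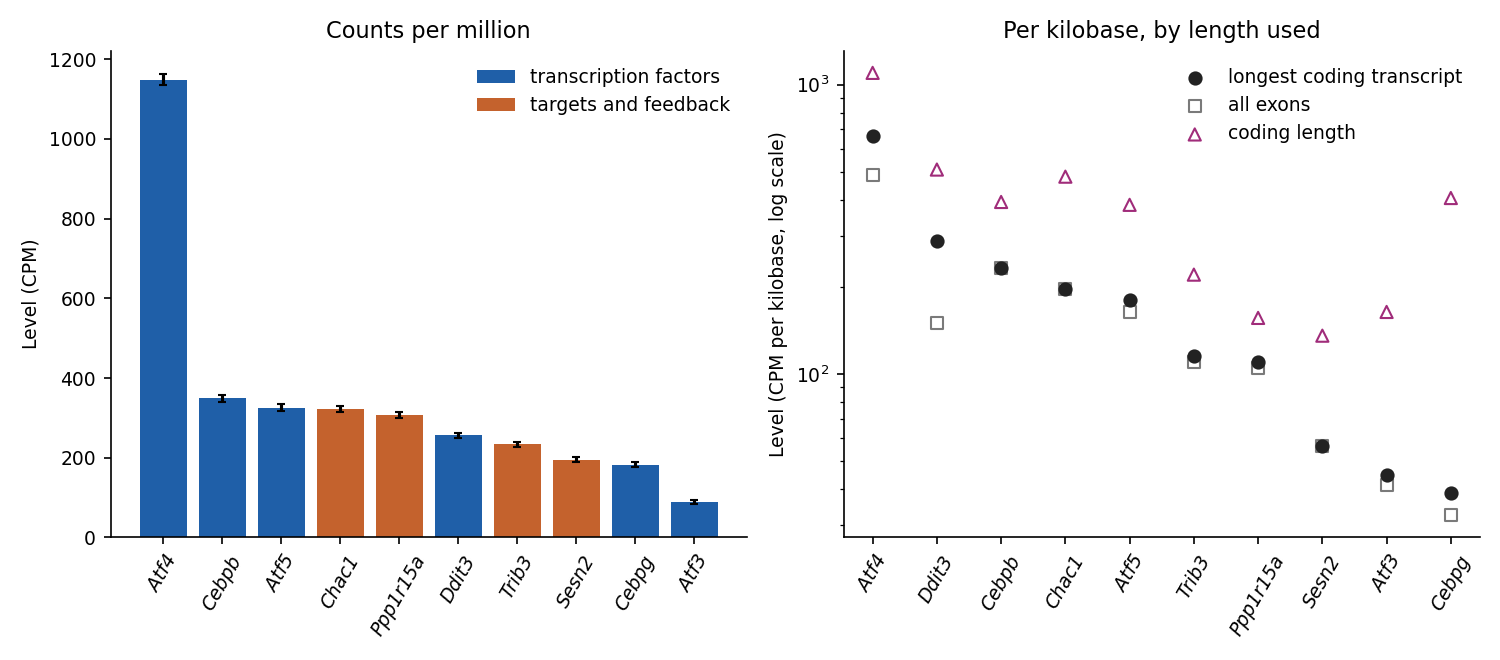
Levels of the 10 genes in the CAF-medium library. Left, bars give CPM with exact Poisson 95% intervals, transcription factors in blue and targets in orange, with Atf4 at 1149 CPM and Atf3 lowest at 88.9 CPM. Right, points give CPM per kilobase on a log axis for 3 choices of length. Cebpg rises by coding length, while Atf4 is highest by all 3.

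Atf4 was the most abundant of the transcription factor genes. Atf4 (chromosome 15, 80255184 to 80257541, plus strand, mm10, 3 exons) had 24434 counts, or 1149 CPM (1134 to 1163), and ranked 42nd of all gene entries. Per kilobase it stood at 666 CPM, above 99.6% of genes with at least 10 counts and 56.0 times the median gene. Ddit3 encodes CHOP, a factor that pairs with C/EBP proteins and promotes death genes in prolonged stress. It lies at chromosome 10, 127290774 to 127296288, plus strand, in 4 exons, and had 5450 counts, or 256 CPM (249 to 263). At 288 CPM per kilobase Ddit3 had 0.432 times the level of Atf4 (0.420 to 0.445). By CPM alone, which is not divided by the transcript length of 890 bases, Ddit3 was the 6th of the 10. By the length of all exons, 1713 bases, it was 5th, at 149.6 CPM per kilobase. Of its exonic bases 10.9% lie in exons of other entries, so part of its counts is uncertain. The largest overlap is with another annotated entry, also named Ddit3, on the same strand. Mars, on the opposite strand, overlaps it too.

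The partners of these factors from the C/EBP family differed from each other per kilobase of transcript, but the difference depended on the length used. Cebpb encodes C/EBP beta, a factor of inflammation and differentiation (chromosome 2, 167688915 to 167690418, plus strand, 1 exon). It had 7419 counts, or 349 CPM (341 to 357), which is 232 CPM per kilobase. Exons of Tmem189 on the opposite strand overlap 20.7% of its bases. Cebpg encodes C/EBP gamma, a partner of ATF4 that lacks an activation domain of its own (chromosome 7, 35046422 to 35056573, minus strand, 2 exons). It had 3880 counts, 182 CPM (177 to 188) and 38.7 CPM per kilobase. Cebpb thus stood 5.99-fold above Cebpg (5.76 to 6.23) per kilobase of transcript and 7.15-fold above it by all exons. By coding length Cebpb had 0.969 times the level of Cebpg. No interval is given for that ratio, so a change of direction is not shown.

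The ATF family members Atf5 and Atf3 stood below Atf4. Atf5 encodes a relative of ATF4 whose translation is likewise controlled by upstream reading frames (chromosome 7, 44812256 to 44816658, minus strand, 3 exons). It had 6933 counts, or 326 CPM (318 to 334), and at 179 CPM per kilobase 0.270 times the level of Atf4 (0.262 to 0.277). Atf3 encodes a stress-induced factor that often acts as a repressor (chromosome 1, 191170296 to 191218039, minus strand, 4 exons). With 1891 counts, or 88.9 CPM (84.9 to 93.0), it had the fewest counts of the 10 genes. Per kilobase it stood at 44.8 CPM, which is 0.0673 times the level of Atf4 (0.0642 to 0.0705) but still above 83.8% of genes. By coding length Atf3 had 0.149 times the level of Atf4.

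The 4 targets and feedback regulators lay closer together than the 6 factor genes, within a 3.5-fold range per kilobase against 17.2-fold. By coding length these ranges were 3.54-fold and 6.7-fold. Per kilobase of transcript the contrast rests in part on Atf4, and by coding length it was not seen without Atf4. The other factors ran from 38.7 to 288 CPM per kilobase of transcript, and from 164 to 508 by coding length. The 4 targets and feedback regulators ran from 56.2 to 196 and from 136 to 480. Chac1 encodes an enzyme that degrades glutathione (chromosome 2, 119351229 to 119354381, plus strand, 3 exons). It had 6836 counts, or 321 CPM (314 to 329), and led the group at 196 CPM per kilobase. Trib3 encodes a pseudokinase that binds ATF4 and CHOP and restrains them (chromosome 2, 152337422 to 152344032, minus strand, 4 exons). It had 4977 counts, 234 CPM (228 to 241) and 115 CPM per kilobase.

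Ppp1r15a encodes GADD34, which brings protein phosphatase 1 to eIF2alpha and so ends the response (chromosome 7, 45522916 to 45526268, minus strand, 2 exons). It had 6546 counts, or 308 CPM (300.4 to 315), and 109.6 CPM per kilobase. Sesn2 encodes sestrin 2, a leucine sensor that holds back mTORC1 (chromosome 4, 132492032 to 132510501, minus strand, 10 exons). It had 4152 counts and 56.2 CPM per kilobase, the lowest of these 4 and above 87.6% of genes. No 64-base window of the longest coding transcripts of the 10 genes was found in transcripts of other, non-overlapping genes, and 5 of the 10 have no exon overlap with another gene. Chromosomes 2 and 7 carry 3 of the 10 genes each.

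**Figure D2:**
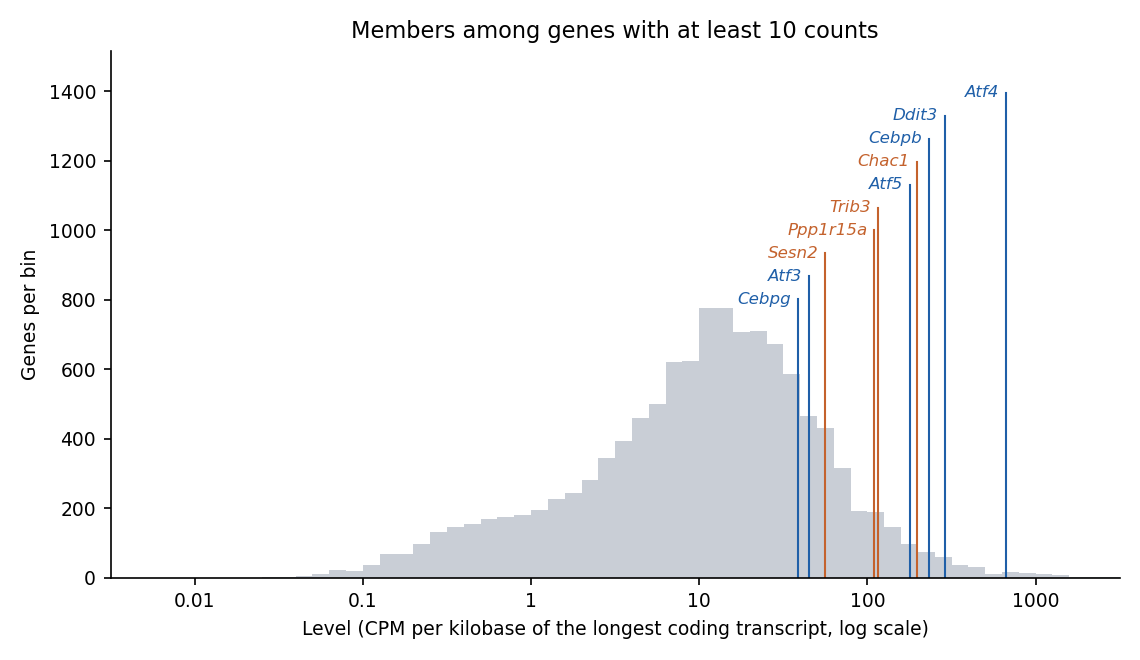
Position of the 10 genes among all genes with at least 10 counts in the CAF-medium library. Grey bars count genes per bin of CPM per kilobase (log axis), and vertical lines mark the 10 genes, transcription factors in blue and targets in orange. All 10 lie right of the peak, from Cebpg at 38.7 to Atf4 at 666 CPM per kilobase.

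Promoter sequences were searched because ATF4 and its C/EBP partners are known to bind a composite element on their targets. RefSeq promoter windows of GRCm38.p6 (mm10), which run from 250 bases before to 50 bases after a transcription start, were matched for all 10 genes by symbol, in 11 windows since Atf5 has a pair of starts. The core of the C/EBP-ATF response element, TGATGNAA on either strand, was found in the windows of 3 of the 10 genes, Atf3, Chac1 and Trib3, and in 3.97% of all 32851 promoter windows. The cyclic AMP response element TGACGTCA was found for Ppp1r15a and in 1.79% of all windows. This palindrome and the response element core share no overlapping match in the windows of the 10 genes. The C/EBP palindrome TTGCGCAA, in 0.183% of all windows, was not found in the windows of the 10 genes. A match is a run of letters and not a measured site. The matches are in capitals, 5′ to 3′ on the strand of the gene. The Chac1 match covers bases -193 to -186 from the start site (chr2:119351023-119351082, plus strand), the Atf3 match -110 to -103 (chr1:191183410-191183469, minus strand), the Trib3 match 15 to 22 (chr2:152344028-152344057, minus strand) and the Ppp1r15a match -12 to -5 (chr7:45526262-45526291, minus strand).
Chac1: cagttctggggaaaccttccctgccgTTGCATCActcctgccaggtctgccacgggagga
Atf3: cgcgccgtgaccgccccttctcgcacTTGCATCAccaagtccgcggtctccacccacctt
Trib3: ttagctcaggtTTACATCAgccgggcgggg
Ppp1r15a: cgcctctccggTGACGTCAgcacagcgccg

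Chac1 and Atf3 hold the same 8 letters, TTGCATCA, which is the core read on the other strand, and were far apart in level, at 196 and 44.8 CPM per kilobase. Trib3, with a different letter inside the core, lay between them at 115 CPM per kilobase. Its match begins at base 15 from the RefSeq start. It lies upstream of the GENCODE gene model, which starts at 152344032 on the minus strand and gave the length used for that level.

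Upstream start codons, through which several of these mRNAs are known to be translated under stress, were counted in the 5′ leaders of the longest coding transcripts. At least 1 upstream ATG was present in 7 of the 10 genes, against 53.0% of 21712 protein-coding genes with a complete annotated leader. The median leader of the 10 genes was 273 bases, where that of all genes was 167 bases. Atf4 has 3 upstream ATGs in a leader of 594 bases, opening frames of 36, 3 and 59 codons, and the last of these runs past the main start. Atf5 has 2 upstream ATGs in a leader of 373 bases, with frames of 3 and 58 codons, of which the longer runs past the main start. Ddit3 has 2 upstream ATGs, with frames of 34 and 31 codons that end before the main start. Ppp1r15a has 7 in the longest of the leaders, at 764 bases, and 1 of its frames runs past the main start. Such a frame was thus present in 3 of the 10 genes, Atf4, Atf5 and Ppp1r15a, against 17.7% of all genes. Atf3, Cebpg and Sesn2 have 1 each, and Cebpb, Chac1 and Trib3 have none. The 3 genes without one had 232, 196 and 115 CPM per kilobase, inside the range of 38.7 to 666 of the other 7.

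Each of the targets and feedback genes stood above the relatives it was compared with, per kilobase of the longest coding transcript. Chac1 was 24.5-fold above Chac2 (21.5 to 28.1), which encodes the constitutive enzyme of the same activity, at 196 against 8.01 CPM per kilobase. Sesn2 was 27.3-fold above Sesn1 (23.3 to 32.0) and 17.6-fold above Sesn3 (16.2 to 19.2), although the second ratio was 29.5 by all exons and 6.89 by coding length. Trib3 was 4.60-fold above Trib1 (4.38 to 4.84). By coding length this ratio was 2.26. Trib2 was listed at 0, and no fold is given against it. Ppp1r15a was 1.37-fold above Ppp1r15b (1.33 to 1.42), the gene for the constitutive partner of the same phosphatase. This last pair turned round by coding length, to 0.731.

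The factor genes were compared with 18 related genes, none of which reached Ddit3 per kilobase. Of the 18, 1 stood above Atf5 and 3 above Cebpg. Xbp1, the factor of the IRE1 branch of the unfolded protein response, was the highest of the 18 at 185 CPM per kilobase. Atf4 was 3.60-fold above Xbp1 (3.51 to 3.69). Nfe2l2, which encodes the oxidative stress factor NRF2, stood at 70.6 CPM per kilobase, Atf1 at 49.96 and Atf6, the factor of the ATF6 branch, at 38.7. Atf4 was 9.43-fold above Nfe2l2 (9.11 to 9.77) and 17.2-fold above Atf6 (16.7 to 17.7). Among C/EBP genes, Cebpb was 22.0-fold above Cebpa (20.2 to 23.9) and 29.1-fold above Cebpd (26.8 to 31.6), which stood at 10.6 and 7.97 CPM per kilobase. By coding length Cebpb was 10.6-fold above Cebpd, and Atf4 2.23-fold above Xbp1 and 7.71-fold above Atf6. Cebpe and Batf were listed at 0, Batf2 had 2 counts and Batf3 5.

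**Figure D3:**
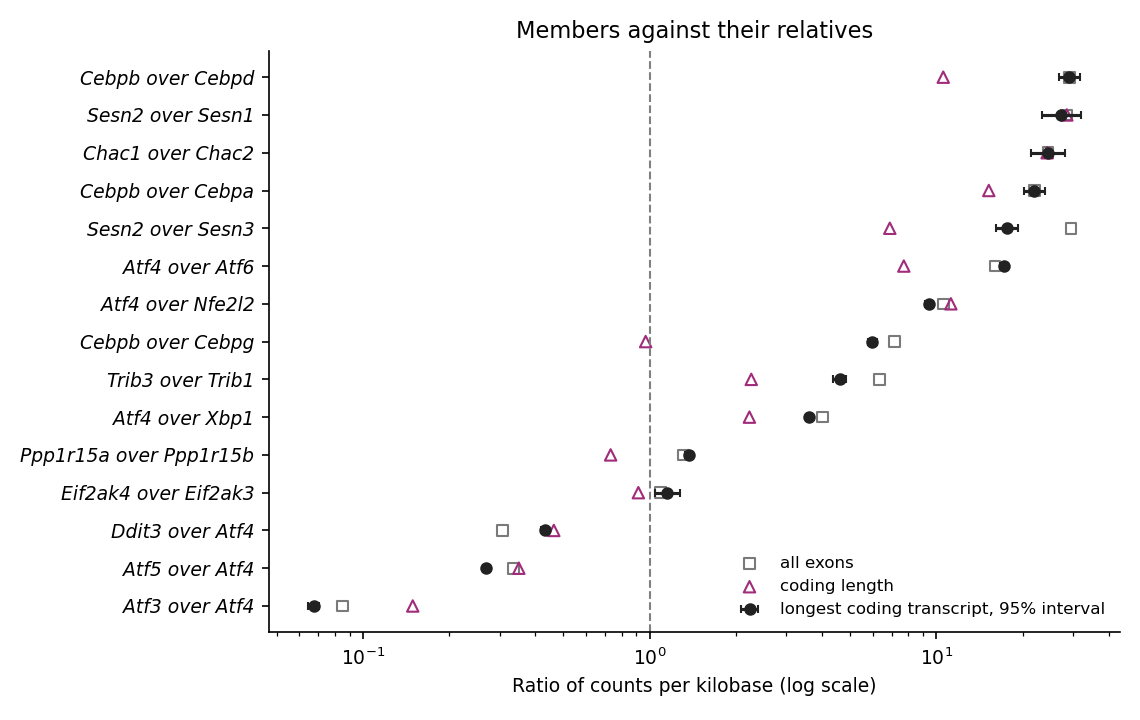
Ratios of counts per kilobase for 15 pairs of genes in the CAF-medium library, on a log axis. Filled points use the longest coding transcript, with exact binomial 95% intervals, and open points use all exons or coding length. Points right of the dashed line mean that the first gene was higher. Cebpb over Cebpg, Ppp1r15a over Ppp1r15b and Eif2ak4 over Eif2ak3 lie on the other side of the line by coding length. Open points carry no interval.

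Upstream of ATF4, the genes of the eIF2alpha kinases and of their regulators had a lower median level. The list of 9 genes, which holds kinases, activators and the inhibitors Dnajc3 and Impact, had a median of 13.6 CPM per kilobase, against 147 CPM per kilobase for the 10 genes and 11.9 for the median gene. Eif2ak2, which encodes the double-stranded RNA sensor PKR and is itself induced by interferon, was the highest at 47.7 CPM per kilobase and the only one of the 9 above Cebpg. Dnajc3 stood at 29.6, Gcn1l1, which activates the kinase GCN2 at stalled ribosomes, at 26.7, and Dele1, which carries mitochondrial stress to the kinase HRI, at 16.9 CPM per kilobase. Eif2ak4, the gene of GCN2, was 1.15-fold above Eif2ak3, the gene of PERK (1.04 to 1.27), at 8.15 and 7.07 CPM per kilobase, and 0.914 times its level by coding length.

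Genes of eIF2, its exchange factor eIF2B and the phosphatase had a median between those of the kinase list and of the 10 genes, at 39.4 CPM per kilobase over 13 genes. Eif2s1, which encodes eIF2alpha itself, stood at 129 CPM per kilobase, Eif2s2 at 113, Ppp1r15b at 79.8 and Eif2b2 at 78.7. Windows were shared with other genes for 24.5% of Eif2s2. Ppp1ca, a catalytic subunit used by most cells, was listed at 0. Exons of other genes hold 16.5% of its exonic bases, and 20.7% of those of Cebpb, which had 7419 counts. Why Ppp1ca was at 0 was not tested, and the value is not read here as a lack of expression.

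**Figure D4:**
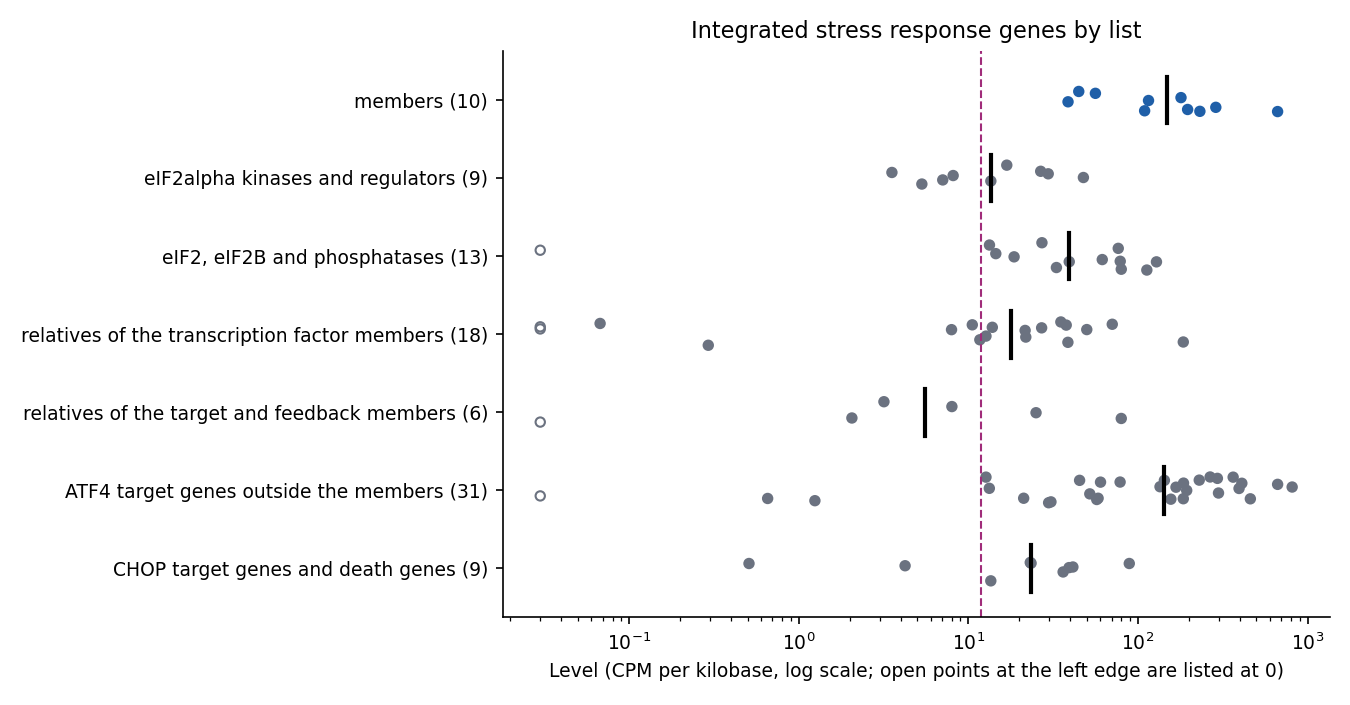
Levels of the 10 genes (blue) and of 6 lists of related genes (grey) in the CAF-medium library, in CPM per kilobase on a log axis, with list sizes in parentheses. Black bars are list medians, the dashed line is the median gene at 11.9, and open points at the left edge are genes listed at 0. Lengths are those of the longest coding transcript, with which the medians of the 10 genes and of other ATF4 targets, at 147 and 143, are close. By coding length these were 388 and 309. The medians of the kinase list and of CHOP targets are lower.

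Per kilobase of the longest coding transcript, other target genes of ATF4 had a median close to that of the 10 genes. The 31 genes of this list are enzymes and carriers of amino acids and other stress genes. They had a median of 143 CPM per kilobase, against 147 for the 10 genes, and 15 of them exceeded the median of the 10 genes. With other lengths their median was lower, at 104 against 130 by all exons and 309 against 388 by coding length. In CPM it was higher, at 358 against 282. At or above 100 CPM were 24 of the 31, against 23.7% of all genes with at least 10 counts. Phgdh, the first enzyme of serine synthesis, led at 811 CPM per kilobase, although 55.7% of its windows were shared. The autophagy receptor gene Sqstm1 followed at 666, the stress-induced chromatin regulator gene Nupr1 at 460 and the folate enzyme gene Mthfd2 at 409.9 CPM per kilobase. Of the 84 other listed genes of the response, 2 were at or above Atf4 per kilobase, namely Phgdh and Sqstm1, and the intervals of Sqstm1 (659 to 673) and Atf4 (658 to 674) overlap. By coding length these were Nupr1 and Sqstm1, with Phgdh at 961 below Atf4 at 1097 CPM per kilobase of coding sequence. Fgf21, a secreted hormone gene under ATF4 control, was listed at 0.

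Target genes of CHOP and death genes had a lower median than the 10 genes, at 23.5 against 147 CPM per kilobase, over 9 genes. The list also holds the survival gene Bcl2, at 4.24 CPM per kilobase. Single genes overlapped, since Gadd45a lay above Sesn2, at 56.2 CPM per kilobase. The growth arrest gene Gadd45a led at 89.0 CPM per kilobase, followed by Ero1l, an oxidase of the endoplasmic reticulum, at 41.4, the pore-forming Bax at 39.3 and the BH3-only death gene Pmaip1 at 36.2. In all 4 the level lay below the 288 CPM per kilobase of Ddit3. At or above 100 CPM were 3 of the 9 genes, against 23.7% of all genes with at least 10 counts, so this count sets the list little apart.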

How the data were processed

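Per the labels, RNA of 14837 cells was taken up in Trizol after 48 h in conditioned medium, and Illumina libraries were made from total RNA. HISAT2 2.1.0, StringTie and mm10 are named in the submitters' processing notes, with no role given. How reads were counted, on which strand and with which gene models was not given in the sources used here. In the file, the deposited values are whole-number counts per gene symbol. The name of 1 value column matched neither library, so it was not used, and the planned comparison of CAF medium with 14837 medium was not made. Of counts from 10 to 99, 36.0% were multiples of 3, against 33.3% of whole numbers, so counts may not be plain read numbers and intervals may be too narrow.

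Counts were divided by the column total and multiplied by 1000000 (CPM). Lengths, exon overlap and windows of 64 bases every 16 bases came from GENCODE M21 (mm10), to which 99.6% of symbols matched. Poisson intervals for levels and binomial intervals for ratios are exact at 95%. Their computation was checked on simulated Poisson counts, which cannot show whether the deposited counts follow that distribution. The intervals cover counting error only, since reads can be copies of 1 molecule. Entries with a repeated name (4) were left out of the gene background. Percentages of genes below a level are over genes with at least 10 counts. Named genes are the 10 genes, up to 4 of the highest per kilobase in each related list, those under 10 counts, and the genes of 16 pairs. Impact and Bcl2 are named besides, to say what their lists hold. The 10 genes, the lists, the markers and the motifs were chosen with earlier results of these data known. Python 3.11.15, numpy 2.4.6, pandas 2.3.3, scipy 1.17.1 and matplotlib 3.10.9 were used.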

Additional observations from a re-analysis of the deposited data

How the results depend on the processing

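No paired analysis was possible because 1 library was used. For the same reason no replicate could be left out, and the alternative for the comparison of media was not run. The count of genes at or above 100 CPM was 9 without mitochondrial genes in the total, 10 without the 100 highest genes in the total, 10 at a threshold of 50 CPM and 7 at 200 CPM. The share of all genes, 23.7%, was taken only at 100 CPM with the full total. These other counts therefore have no share to be set against. All 10 stayed above the median gene under the 5 alternatives tried. The median level of 282 CPM came to 326 CPM without the 100 highest genes, which held 13.4% of counts, in the total; a smaller total raises the CPM of each gene by the same factor. Of the 9 neighbouring pairs in the order, 9 had an interval excluding 1 by all exons, 6 by coding length and 8 with counts divided by 3. The first gene was higher in 13 of the 16 pairs by transcript and by all exons, and in 10 by coding length, where the pair of Trib3 and Trib2, listed at 0, is counted as higher. The pairs whose ratio fell below 1 by coding length were Cebpb over Cebpg at 0.969, Ppp1r15a over Ppp1r15b at 0.731 and Eif2ak4 over Eif2ak3 at 0.914. No interval is given for these ratios, so at 0.969 and 0.914 a change of direction is not shown.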

Other observations

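Among the ATF4 targets outside the 10 genes, Gdf15 and Cbs were low in the CAF-medium library. They were chosen after their values were seen. Gdf15, a secreted stress hormone gene, had 41 counts and stood at 1.25 CPM per kilobase, and Cbs, an enzyme gene of cysteine synthesis, had 87 counts and stood at 0.657 CPM per kilobase. Both lay below the median gene, at 11.9 CPM per kilobase, while Asns, the asparagine synthetase gene of the same list, stood at 395 CPM per kilobase.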
